A study of Mus musculus with 17 samples.

Results

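The genes described here are 38 genes of protein folding, quality control and export in the endoplasmic reticulum (ER), measured by RNA sequencing in mouse pancreatic stellate cells in 4 culture media. They were listed by function, with no measured value in the rule, although earlier results of these data were known when the list was made. The folding and stress classes are ER chaperones of the Hsp70 and Hsp90 families with their cofactors (9 genes), protein disulfide isomerases and lectin chaperones (6), ER-associated degradation (4) and stress sensors and transcription factors of the ER membrane (6). The others are the translocon (2), the COPII coat and cargo export (5), retrieval receptors (2) and collagen folding (4). All 38 matched 1 gene ID each among the 35896 IDs of the files, and all 38 were among the 13923 genes that passed the filter on low counts.

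Cells of 2 lines, PSC4 and PSC5, labelled WT and C57BL/6J, were embedded in Matrigel, a basement membrane gel, and held for 4 days in 1 of 4 media. The control medium (5 libraries) is the state the submitters call quiescent. TGF-beta, a cytokine that turns stellate cells into matrix-secreting myofibroblasts, was added to control medium at 20 ng/mL (4 libraries). The third medium, called CM here, had been conditioned by organoids of pancreatic tumours and was given alone (4 libraries) or with 300 nM neratinib, a kinase inhibitor of the ERBB receptors (4 libraries). PSC4 was at passage 23, 24 or 25 for replicates 1, 2 and 3, and PSC5 at passage 27 or 28 for replicates 1 and 2, so a replicate number within a line marks a passage. TGF-beta has no PSC4 replicate 1, and CM with and without neratinib has no PSC4 replicate 3. Both CM groups carry a medium code that the labels do not explain: T8 in replicate 1 and T6 in replicate 2. No 2 libraries of a group share both line and passage, but all come from 2 lines at neighbouring passages. The p-values therefore measure the spread between these libraries.

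Library totals were 22168953 to 29421447 counts. On the third principal component, which held 14.9% of the variance, the 3 libraries of PSC4 replicate 1 lay at 1.8 to 37, among the 8 PSC5 libraries (-3.6 to 36.2) and apart from the other 6 PSC4 libraries (-56.8 to -19.7). Results without those 3 libraries are therefore given beside each comparison. The 10 fibroblast and stellate markers had summed levels of 5061 to 6689 CPM (counts scaled to a common library total) in control, 9418 to 15744 in TGF-beta, 5544 to 6424 in CM and 4229 to 6027 with neratinib. These sums were led by the collagen genes Col1a1 and Col1a2, which are also secreted cargo, and without them the other 8 summed to 2998 to 3337, 2453 to 3022, 3357 to 4305 and 2997 to 3984. The list did not move as a block: 3 markers rose and 3 fell with TGF-beta (Col1a1 at 2.13 and Dcn, decorin, at -2.01 on the log2 scale), while in CM Dcn rose by 3.03 and Vim, vimentin, was lower at -0.67. Of 10 acinar markers, 9 were under 1 CPM in every library of each group, and of 8 immune markers at least 6 were. Cd68, a macrophage marker, was at 11.6 CPM with neratinib in PSC4 replicate 1 and at most at 2.62 in the other 16 libraries. The 7 endothelial markers summed to 43.2 to 57.1 CPM in control, 35.3 to 51.6 in TGF-beta, 29.6 to 38.1 in CM and 29.1 to 42.9 with neratinib. Of the 6 tested, 3 rose and 1 fell with TGF-beta, and 1 rose and 4 fell with neratinib against control. Among them Vwf, von Willebrand factor, was at 1.39 to 2.92 CPM in control, 3.33 to 16.6 in TGF-beta, and with neratinib 2.18 to 8.01 in 3 libraries and higher, above every other library of the study, in PSC4 replicate 1. The part of these transcripts in the results below was not tested. In such bulk samples, fewer cells of a type and less RNA per cell cannot be told apart.

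Proteins bound for secretion enter the ER through the Sec61 channel, are folded by chaperones and disulfide isomerases, and leave in vesicles with a COPII coat; proteins that fail to fold are taken back to the cytosol and degraded. The sensors IRE1 (Ern1), PERK (Eif2ak3) and ATF6 (Atf6) respond to unfolded protein, and XBP1 and cleaved ATF6 then activate chaperone and degradation genes. Stellate cells are the main collagen-secreting cells of the pancreas, and procollagen needs its own chaperone, its own isomerases and enlarged export carriers.

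The ER stress elements are the best known DNA sites of this response. Of the 13 genes with any of the 3 motifs below, the promoter windows of 7 are shown. Those of Calr, Canx, Creld2, Dnajc3, Dnajb11 and Sec23a are not shown. RefSeq promoter windows of build GRCm38.p6, from 250 bases before to 50 after each transcript start, were matched for 31 of the 38 genes. Fkbp10, Hyou1, Manf, Creb3l1, Sec61a1, Atf6 and Kdelr2 had no match. The 3 motifs below were searched on both strands: the ER stress element (ERSE, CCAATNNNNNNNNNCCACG), its shorter form ERSE-II (ATTGG and CCACG with 1 base between) and the unfolded protein response element (UPRE, TGACGTGG). Read on its other strand, the UPRE begins with the CCACG that ends both ERSE forms. Capitals mark the motif in each window, read 5′ to 3′ on the strand of the gene.
Hspa5: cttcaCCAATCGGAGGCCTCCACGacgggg
Hsp90b1: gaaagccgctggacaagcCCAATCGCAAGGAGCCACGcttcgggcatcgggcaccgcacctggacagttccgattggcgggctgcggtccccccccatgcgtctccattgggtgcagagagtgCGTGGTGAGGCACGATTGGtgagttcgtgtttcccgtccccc
Syvn1: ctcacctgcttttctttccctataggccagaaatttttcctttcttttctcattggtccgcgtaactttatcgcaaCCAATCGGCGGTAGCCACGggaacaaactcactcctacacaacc
Pdia6: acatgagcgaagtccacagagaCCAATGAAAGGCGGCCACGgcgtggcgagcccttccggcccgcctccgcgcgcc
Herpud1: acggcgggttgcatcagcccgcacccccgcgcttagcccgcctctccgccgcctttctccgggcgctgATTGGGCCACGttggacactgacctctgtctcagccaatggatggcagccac
Kdelr3: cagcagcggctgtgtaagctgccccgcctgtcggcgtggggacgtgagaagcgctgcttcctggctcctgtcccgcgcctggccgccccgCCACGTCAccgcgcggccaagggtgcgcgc
Sec24d: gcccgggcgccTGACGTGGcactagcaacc
The windows lie at chr2:34772020-34772049 for Hspa5 (plus strand), chr10:86705510-86705674 for Hsp90b1 (minus strand), chr19:6046456-6046575 for Syvn1 (plus), chr12:17266469-17266544 for Pdia6 (plus), chr8:94386309-94386428 for Herpud1 (plus), chr15:79516288-79516407 for Kdelr3 (plus) and chr3:123267459-123267488 for Sec24d (plus). Hsp90b1 holds 2 ERSE copies, the second on the other strand, Herpud1 holds the ERSE-II, and Kdelr3 (other strand) and Sec24d hold the UPRE. The motifs of Hspa5 and Sec24d lie inside an annotated GENCODE M21 exon, and those of the other 5 lie outside any.

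The ERSE was found in 39 of 32851 promoter windows of all genes (0.119%) and in those of 8 of the 31 genes: Hspa5, Hsp90b1, Dnajc3, Creld2, Calr, Canx, Pdia6 and Syvn1. The ERSE-II was in 12 windows (0.0365%) and in Herpud1 and Dnajb11. The UPRE was in 222 windows (0.676%) and in Kdelr3, Sec23a and Sec24d. The ERSE-II of Dnajb11 (bases 8 to 18) and the UPRE of Sec23a (bases 7 to 14) lie after the transcript start, counted as base 1. The rule for the 38 genes named targets of XBP1 and ATF6, so a high share of these motifs among them was built in. The 31 genes had 34 windows, and they are counted here as genes, beside windows for all genes. These matches describe the letters of the windows and not the binding of a factor.

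In control medium, levels per kilobase of exon placed the abundant folding proteins first. Calr, the calcium-binding lectin chaperone, stood at 416 ± 15.5 CPM per kb (SD, n = 5), followed by P4hb, a disulfide isomerase and subunit of prolyl hydroxylase (403 ± 52.6), Serpinh1, the collagen chaperone Hsp47 (317 ± 34.0), Hsp90b1, the ER Hsp90 (294 ± 10.4), Pdia3 (234 ± 13.7) and Hspa5, the ER Hsp70 BiP (200.3 ± 15.6). The sensors Eif2ak3 (8.33 ± 0.499) and Ern1 (9.19 ± 1.52) had the lowest levels per kb. The SD over the 5 control libraries was between 1.94% of the mean for Fkbp14 and 18.5% for Canx.

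With TGF-beta, all 9 genes of the 38 in translocation, COPII export and retrieval rose, while BiP and 4 other genes of the 9 in its class were not called by edgeR. Of the 38 genes, 24 rose, 1 fell and 13 were not called against control, and 33 of the 38 fold changes were positive. Calls are edgeR quasi-likelihood tests with a Benjamini-Hochberg adjusted p under 0.05 over all 13923 genes, and each log2 fold change is given ± its standard error. The median log2 fold change of the 38 was 0.24, beside -0.02 over all genes tested. In this comparison 40.2% of all genes were called (19.7% higher and 20.5% lower), and 49% of the called genes were higher. With upper-quartile factors 41.3% of the called genes were higher, and 20 of the 38 genes rose and 1 fell, with Hyou1, Pdia3, Edem1 and Sec24d not called. All 5 genes of the COPII coat and export, both translocon genes and both retrieval receptors rose, and 3 of 9 Hsp70 and Hsp90 chaperones and cofactors did. The class medians were 0.73 for retrieval, 0.55 for the translocon, 0.47 for sensors and transcription factors, 0.45 for collagen folding and 0.33 for COPII, beside 0.08 for the Hsp70 and Hsp90 class.

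**Figure D1:**
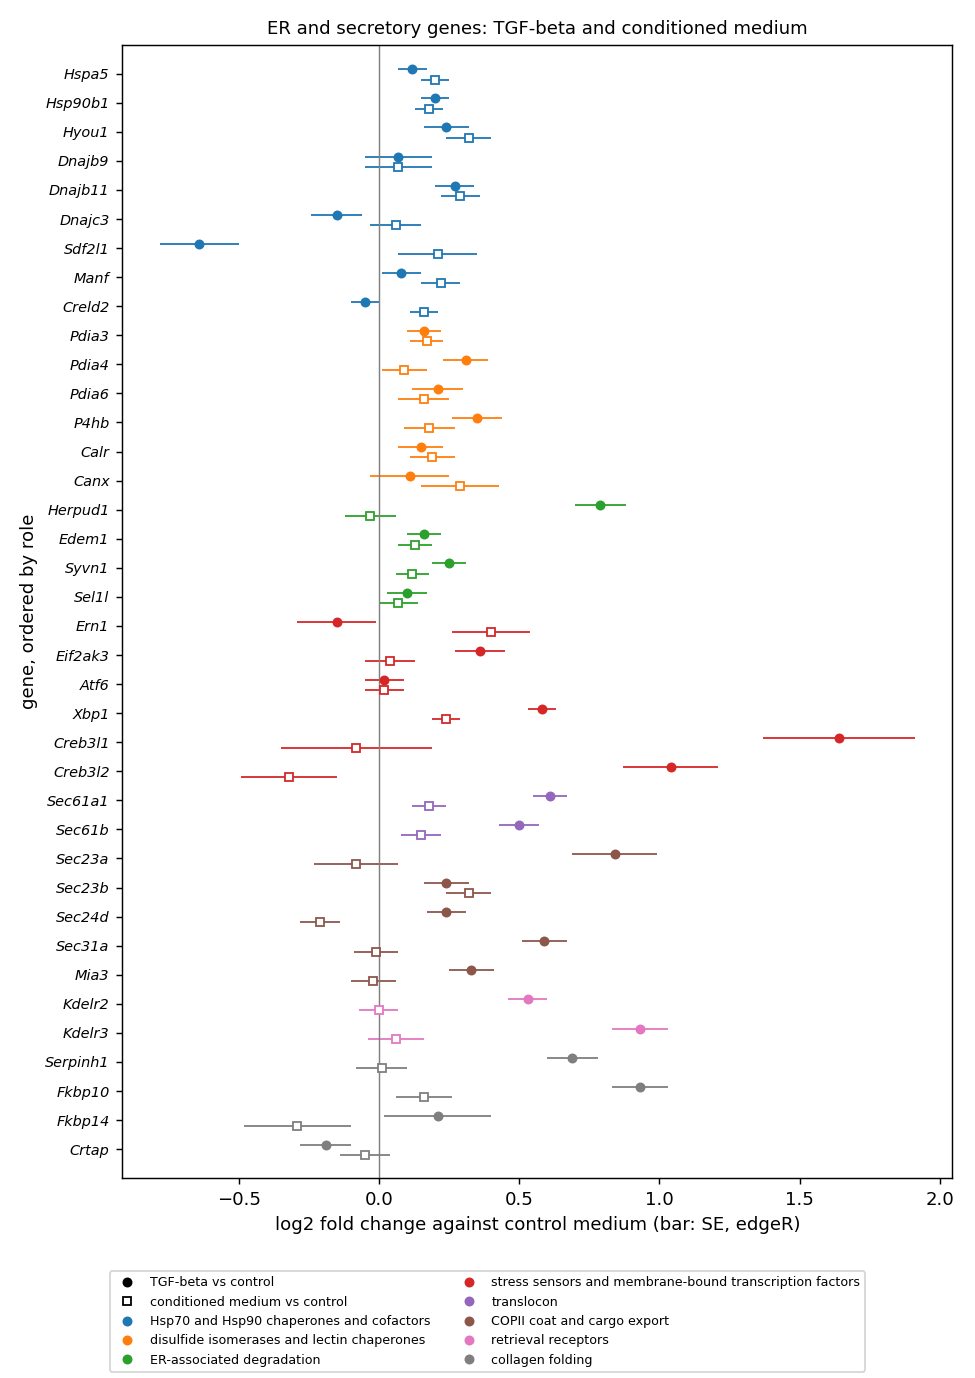
Fitted log2 fold change (edgeR) of each of the 38 genes in TGF-beta against control and in CM against control, ordered and coloured by role. Filled circles are TGF-beta, open squares CM and bars standard errors: Creb3l1 is the highest in TGF-beta at 1.64 and Sdf2l1 the lowest at -0.64, while the called genes of CM lie between 0.18 and 0.32.

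The largest changes were in the OASIS-family transcription factors, which sit in the ER membrane until they are cut and which are known for driving secretory genes in matrix-producing cells. Library values are given in the order PSC4 then PSC5, by replicate number. Creb3l1 (ENSMUSG00000027230, chr2:91982328-92024502, minus strand) was at 35.6, 33.0, 28.8, 41.4 and 33.0 CPM in control and 106, 109, 114 and 107 CPM in TGF-beta. Every TGF-beta library was above every control library, with a narrow spread within TGF-beta. The log2 fold change was 1.64 ± 0.27 (adjusted p = 0.000235). Creb3l2 was at 102, 129.7, 121, 114 and 109 CPM in control and 243, 282, 195 and 224 CPM in TGF-beta, a log2 fold change of 1.04 ± 0.17 (adjusted p = 0.000191). Its groups did not overlap, and within TGF-beta both PSC4 libraries were above both PSC5 libraries.

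Among the sensors and their direct effector, Xbp1, whose spliced mRNA encodes the transcription factor made downstream of IRE1, was at 60.7, 59.0, 58.9, 73.6 and 71.2 CPM in control and 91.7, 92.0, 101 and 107 CPM in TGF-beta. The groups did not overlap, and PSC5 libraries were higher than PSC4 libraries 2 and 3 in both media. Its log2 fold change was 0.58 ± 0.05 (adjusted p = 4.96e-07), and gene counts do not separate the spliced from the unspliced form. Eif2ak3, the translation-blocking sensor PERK, rose by 0.36 ± 0.09 (adjusted p = 0.00612). The lowest TGF-beta library of Eif2ak3 (54.8 CPM) lay next to the highest control library (54.7 CPM). Atf6 had a log2 fold change of 0.02 ± 0.07 and Ern1 of -0.15 ± 0.14, and neither was called (adjusted p = 0.801 and 0.412).

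Sec61a1 and Sec61b, subunits of the translocon channel, rose by 0.61 ± 0.06 and 0.50 ± 0.07 (adjusted p = 2.48e-06 and 3.43e-05). Sec23a, an inner COPII coat subunit, was at 88.1, 105, 118, 86.7 and 93.4 CPM in control and 193, 233, 143 and 129.9 CPM in TGF-beta, with no overlap and with the PSC4 libraries highest. Its log2 fold change was 0.84 ± 0.15 (adjusted p = 0.000387), beside 0.24 ± 0.08 for its paralogue Sec23b (adjusted p = 0.0193). Sec31a, an outer coat subunit, rose by 0.59 ± 0.08 (adjusted p = 3.11e-05), Mia3, the TANGO1 receptor that loads procollagen into carriers, by 0.33 ± 0.08 (adjusted p = 0.00468), and Sec24d, a cargo-binding subunit, by 0.24 ± 0.07 (adjusted p = 0.0185). Kdelr3 and Kdelr2, receptors that return escaped ER proteins from the Golgi, both rose. Kdelr3 (ENSMUSG00000010830, chr15:79516411-79527739, plus strand), whose window above holds the UPRE, was at 86.5, 84.0, 85.7, 93.9 and 81.2 CPM in control and 176, 168, 163 and 152 CPM in TGF-beta. Every TGF-beta library lay well above every control library, and the log2 fold change was 0.93 ± 0.10 (adjusted p = 4.91e-06). Kdelr2 went from 204, 194, 202, 206 and 196 CPM to 297, 300.3, 281 and 277 CPM, a log2 fold change of 0.53 ± 0.07 (adjusted p = 3.49e-05), also without overlap.

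Collagen folding split into a pair that rose and a pair without a call. Fkbp10, the prolyl isomerase FKBP65 of procollagen, was at 197, 146, 142, 191 and 186 CPM in control and 315, 319, 351 and 339 CPM in TGF-beta. Serpinh1 was at 842, 686, 682, 829.7 and 836 CPM in control and 1318, 1186, 1343 and 1201 CPM in TGF-beta. In both genes all TGF-beta libraries exceeded all control libraries, and PSC4 replicates 2 and 3 were the lowest control libraries. The log2 fold changes were 0.93 ± 0.10 and 0.69 ± 0.09 (adjusted p = 4.04e-06 and 2.42e-05). Fkbp14, another prolyl isomerase of the ER, was at 40.0, 42.0, 40.6, 40.2 and 40.9 CPM in control and 51.1, 53.3, 42.5 and 42.3 CPM in TGF-beta. The groups of Fkbp14 did not overlap, but the PSC5 libraries exceeded control only slightly, and it was not called (log2 fold change 0.21 ± 0.19, adjusted p = 0.411). Crtap, a subunit of the prolyl 3-hydroxylation complex, was not called either (-0.19 ± 0.09, adjusted p = 0.13).

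Of the 9 chaperones and cofactors of the Hsp70 and Hsp90 class, 3 rose, 1 fell and 5 were not called. Hspa5 (ENSMUSG00000026864, chr2:34771970-34777547, plus strand), the usual readout of ER stress, was at 775, 821, 806, 931 and 901 CPM in control and 916, 873, 953 and 966 CPM in TGF-beta. The 2 groups overlapped, with PSC5 control libraries inside the TGF-beta range. Within each line, every TGF-beta library was above every control library. The log2 fold change of Hspa5 was 0.12 ± 0.05 (adjusted p = 0.0786). DESeq2 called it (adjusted p = 0.00174). Hsp90b1 rose by 0.20 ± 0.05 (adjusted p = 0.00809), from 1154, 1195, 1135, 1217 and 1235 CPM to 1345, 1356, 1395 and 1365 CPM with no overlap. Dnajb11, an Hsp40 partner of BiP, rose by 0.27 ± 0.07 (adjusted p = 0.0056), and Hyou1, an Hsp70-like exchange factor, by 0.24 ± 0.08 (adjusted p = 0.0339). Sdf2l1 (ENSMUSG00000022769, chr16:17130138-17132383, minus strand), a component of ER chaperone complexes, was at 22.9, 28.6, 28.8, 26.9 and 29.2 CPM in control and 20.1, 15.9, 16.3 and 17.8 CPM in TGF-beta. It was the 1 gene of the 38 that fell, with every TGF-beta library under every control library (log2 fold change -0.64 ± 0.14, adjusted p = 0.00254). Dnajc3, Dnajb9, Manf and Creld2 had log2 fold changes of -0.15, 0.07, 0.08 and -0.05 and were not called.

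Of the isomerases and lectin chaperones, P4hb rose by 0.35 ± 0.09 (adjusted p = 0.00755), Pdia4 by 0.31 ± 0.08 (adjusted p = 0.00435) and Pdia3 by 0.16 ± 0.06 (adjusted p = 0.0451). Calr and Canx, the pair of lectin chaperones that bind monoglucosylated glycoproteins, had log2 fold changes of 0.15 ± 0.08 and 0.11 ± 0.14 (adjusted p = 0.14 and 0.558), and Pdia6 of 0.21 ± 0.09 (adjusted p = 0.0632).

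In ER-associated degradation, Herpud1, a membrane protein that assembles the degradation complex, had the largest rise of the 4 genes. Herpud1 (ENSMUSG00000031770, chr8:94386438-94395377, plus strand), with the ERSE-II in its window, was at 54.3, 60.4, 63.2, 59.3 and 54.7 CPM in control and 105, 126, 79.9 and 90.9 CPM in TGF-beta. The groups did not overlap, and PSC4 libraries were higher than PSC5 libraries within TGF-beta. Its log2 fold change was 0.79 ± 0.09 (adjusted p = 1.21e-05). Syvn1, the ubiquitin ligase HRD1, rose by 0.25 ± 0.06 (adjusted p = 0.0048), and Edem1, which hands mannose-trimmed glycoproteins to degradation, by 0.16 ± 0.06 (adjusted p = 0.0429). Sel1l, the adaptor of HRD1, had a log2 fold change of 0.10 ± 0.07 and was not called (adjusted p = 0.298).

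Set beside the motifs, 2 of the 8 ERSE genes rose with TGF-beta (Hsp90b1 and Syvn1), 6 were not called, and their log2 fold changes lay between -0.15 and 0.25. Both ERSE-II genes rose (0.27 and 0.79), as did the 3 UPRE genes (0.24 to 0.93). Among these, Dnajb11 and Sec23a have their motif after the transcript start. Of the 18 genes with a window and none of the 3 motifs, 12 rose, with a median of 0.28. Over all genes 19.7% rose, and of the 38 genes 24 did. No motif was tested against the fold changes, and with at most 8 genes per motif no conclusion about motifs is drawn from these counts.

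Several of the smaller TGF-beta calls were lost when 1 library was left out. Without 1 library at a time, Pdia3 was not called in 8 of 9 fits (any but that without control PSC4 replicate 1, adjusted p 0.0537 to 0.129), and Edem1 in 6 (any TGF-beta library but PSC5 replicate 2, or control PSC4 replicate 2 or 3 or PSC5 replicate 1, 0.062 to 0.132). Hyou1 was not called in 5 (without TGF-beta PSC4 replicate 2 or PSC5 replicate 2, or control PSC4 replicate 2 or 3 or PSC5 replicate 1, 0.0512 to 0.121). Sec24d was not called without TGF-beta PSC4 replicate 3 or PSC5 replicate 1 (0.05 and 0.0674), and Sec23b not without TGF-beta PSC5 replicate 2 (0.0659). The other 20 calls held in all 9 fits. With line and replicate number as a block, Canx (0.21, adjusted p = 0.011) and Pdia6 (0.16, adjusted p = 0.0249) were also called higher, and Crtap (-0.23, adjusted p = 0.00343) and Dnajc3 (-0.20, adjusted p = 0.0338) lower. The same 4 genes were added without the PSC4 replicate 1 libraries, which gave 26 higher and 3 lower. Of all genes, 50.9% were called with the block and 49.4% without those libraries.

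The TGF-beta effect on the 38 genes was compared between the lines with an interaction term. The term was called for 0.0862% of all genes (12 of 13923) and for 0 of the 38 by edgeR. DESeq2 called it for 147 genes and for 0 of the 38. At an unadjusted threshold of 0.05 the edgeR term passed for 1225 of the 13923 genes and for 3 of the 38, a similar share. These 3 were Herpud1 (PSC5 minus PSC4 -0.38 ± 0.13), Sec23a (-0.54 ± 0.22) and Dnajb9 (-0.43 ± 0.18), with adjusted p from 0.394 to 0.531. The log2 ratio of TGF-beta to control means was 0.96 in PSC4 and 0.58 in PSC5 for Herpud1, and 1.04 and 0.60 for Sec23a.

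**Figure D2:**
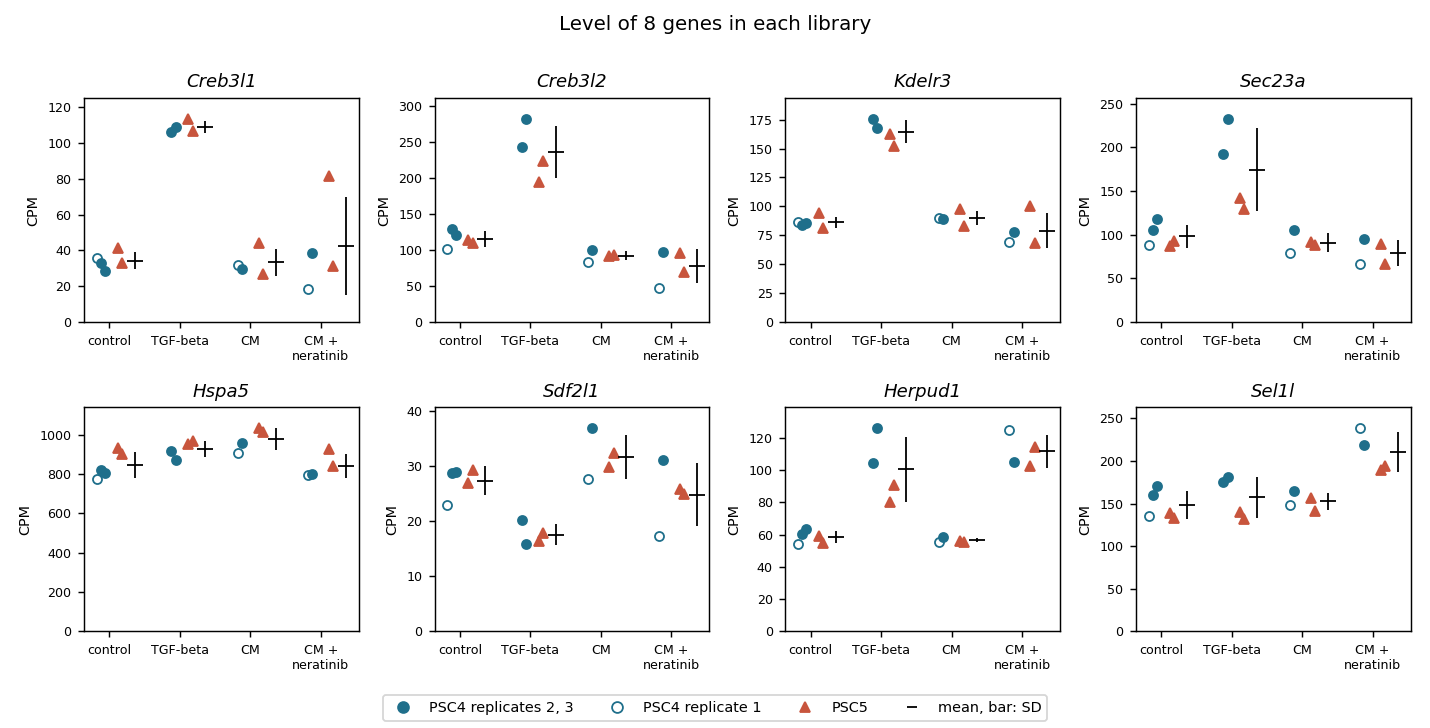
TMM-scaled CPM of 8 genes in each of the 17 libraries by medium, with PSC4 as circles (replicate 1 open), PSC5 as triangles and the group mean and SD beside them. Creb3l1 libraries in TGF-beta lie between 106 and 114 CPM and those in control between 28.8 and 41.4 CPM. Hspa5 libraries of the 2 media overlap between lines but not within a line.

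The 3 pairs of paralogues were compared as log2 count ratios within each library, a quantity that does not depend on library scaling and is not corrected for length. The Kdelr3 to Kdelr2 ratio was -1.22 ± 0.05 (SD, n = 5) in control and -0.81 ± 0.05 (SD, n = 4) in TGF-beta, a difference of 0.40 by an exact two-sided permutation test with p = 0.00794, the smallest of 126 arrangements, and 0.0595 after adjustment over 15 tests. The Creb3l1 to Creb3l2 ratio was 0.65 higher in TGF-beta than in control (exact permutation p = 0.0159, adjusted 0.0794). In CM with neratinib this ratio was also higher than in control, by 0.73 and without overlap (exact permutation p = 0.00794, adjusted 0.0595). There Creb3l2 was called lower than control, whereas both genes rose with TGF-beta. The 4 differences of this ratio between CM with neratinib and control, within line and replicate number, were 0.16 to 1.24. The Sec23a to Sec23b ratio was 0.55 higher in TGF-beta than in control (exact permutation p = 0.0635, adjusted 0.119). For Kdelr3 to Kdelr2 and for Creb3l1 to Creb3l2 no TGF-beta library overlapped a control library. None of the 15 tests passed 0.05 after adjustment, and the design allowed little: the smallest p of 4 against 5 libraries (0.00794) adjusts to 0.119 when it stands alone, and 4 against 4 libraries cannot go below 0.0286. Within line and replicate number, a comparison chosen after seeing the data, all 4 matched differences between TGF-beta and control were above 0 in each pair of genes. They were 0.66 to 0.78 for Creb3l1 to Creb3l2, 0.18 to 0.78 for Sec23a to Sec23b and 0.35 to 0.45 for Kdelr3 to Kdelr2, and an exact sign-flip permutation test of 4 pairs gave its smallest p, 0.125, for each.

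**Figure D3:**
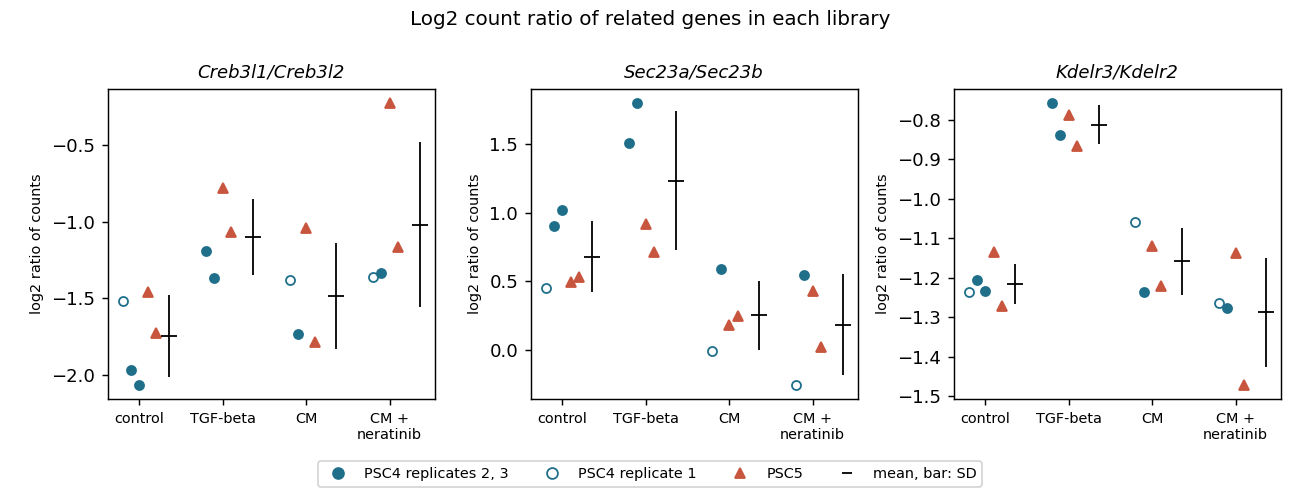
Log2 count ratio of 3 paralogue pairs in each library by medium, with PSC4 as circles (replicate 1 open), PSC5 as triangles and the mean and SD beside them. The Kdelr3 to Kdelr2 ratio is -0.81 ± 0.05 in TGF-beta and -1.22 ± 0.05 in control.

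Counts of the 38 genes made up 1.12% ± 0.0411 of a control library (SD, n = 5) and 1.27% ± 0.0231 of a TGF-beta library (SD, n = 4). Counts of 12 secreted matrix genes, the cargo, made up 1.42% ± 0.109 and 3.34% ± 0.823. These shares were not tested. Of the 12 cargo genes 9 rose, where 19.7% of all genes did, with a median log2 fold change of 1.37. Among them were Col1a1 (2.13 ± 0.29), Col1a2 (1.60 ± 0.23), Col3a1 (1.08 ± 0.38) and Fn1 (1.18 ± 0.17).

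The same pathway was followed in 156 further genes on 8 lists, beside 19.7% of all genes higher and 20.5% lower with TGF-beta. Against control, 14 of 17 genes of the COPI coat and Golgi-to-ER retrieval rose with TGF-beta and 0 fell, with a median of 0.38, among them the small GTPase Arf4 (0.63 ± 0.05), the third KDEL receptor Kdelr1 (0.52 ± 0.05) and the coat subunit Copa (0.50 ± 0.07). Of 11 collagen hydroxylases and glycosyltransferases tested, 8 rose and 0 fell, with a median of 0.63; P4ha2 and P4ha1, catalytic subunits that pair with P4hb, rose by 1.35 ± 0.26 and 1.07 ± 0.13, and the lysyl hydroxylase Plod2 by 0.80 ± 0.17. Of 30 genes of translocation, signal peptide cleavage and N-glycosylation, 17 rose and 0 fell, led by the signal peptidase subunit Sec11c (1.01 ± 0.14) and the signal recognition particle receptor Srpr (0.64 ± 0.07). Of 25 further COPII and export genes, 9 rose and 1 fell, with Sec16b at 1.16 ± 0.16, the coat subunit Sec13 at 0.58 ± 0.05 and the cargo receptor Lman2 at -0.15 ± 0.06.

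Folding and degradation were mixed by the same count, where 19.7% of all genes rose and 20.5% fell. Of 30 further folding factors, 11 rose and 2 fell, with a median of 0.12: the oxidase Ero1a rose by 1.05 ± 0.24 and the isomerase Pdia5 by 0.84 ± 0.11, while Cnpy2 and Cnpy3 changed by -0.38 and -0.42. Of 19 further degradation genes, 5 rose and 2 fell, with the ubiquitin-conjugating enzymes Ube2j1 and Ube2g2 each at 0.55. Of 10 outputs of PERK and ATF4, 5 rose and 1 fell, with the pseudokinase Trib3 at 1.54 ± 0.20, Ddit4 at 1.18 ± 0.11, asparagine synthetase Asns at 1.07 ± 0.15 and Sesn2 at -0.54 ± 0.15.

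In CM, 5 of the 9 Hsp70 and Hsp90 chaperones and cofactors were called slightly higher than in control, as were Xbp1 and Sec23b. Of these 7 calls, 6 were lost in at least 1 fit that left out 1 library. Of the 38 genes, 7 rose, 0 fell and 31 were not called against control, in a comparison where 14.2% of all genes were called (7.05% higher and 7.14% lower). Of all called genes 49.7% were higher, and 37.5% with upper-quartile factors, under which 4 of the 38 rose and 1 fell. The median log2 fold change of the 38 was 0.13, beside 0 over all genes, and 29 of 38 were positive. Xbp1 was at 69.7, 75.0, 83.7 and 80.6 CPM in CM, a log2 fold change of 0.24 ± 0.05 (adjusted p = 0.00638), with CM PSC4 replicate 1 inside the control range. Hspa5 was at 910.3, 956, 1036 and 1015 CPM in CM, with the lowest CM library inside the control range, a log2 fold change of 0.20 ± 0.05 (adjusted p = 0.0203). Hyou1 (0.32 ± 0.08), Sec23b (0.32 ± 0.08), Dnajb11 (0.29 ± 0.07), Manf (0.22 ± 0.07), a secreted ER stress factor, and Hsp90b1 (0.18 ± 0.05) were the other 5 (adjusted p 0.0141 to 0.045).

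Only Xbp1 of the 7 was called in each of the 9 fits that left out 1 library. Without CM PSC5 replicate 1, Xbp1 was the 1 gene left: Hspa5, Hyou1, Dnajb11, Manf, Hsp90b1 and Sec23b had adjusted p between 0.053 and 0.0956. Without CM PSC4 replicate 2, 3 were left, and Hspa5, Hyou1, Manf and Hsp90b1 had adjusted p between 0.063 and 0.149. Hsp90b1 lost its call in all 9 fits (0.0536 to 0.0806), and Manf in 8 of them, any but that without CM PSC4 replicate 1 (0.0544 to 0.149). With the block, 13 genes rose and 1 fell, adding Canx (0.25, adjusted p = 0.0106), Ern1 (0.34, adjusted p = 0.00306), Calr (0.20, adjusted p = 0.0264), Pdia3, Pdia6 and Sec61a1, with Sec24d lower (-0.20, adjusted p = 0.0433). Without the PSC4 replicate 1 libraries 11 rose and 0 fell. Of all genes, 23.3% were called with the block and 18.1% without those libraries. The share was 5.68% without CM PSC5 replicate 1 and 9.01% without CM PSC4 replicate 2.

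Epithelial markers moved with the CM libraries. Of the 10 epithelial markers, 7 were called higher in CM and 1, Sox9, lower (-0.55, adjusted p = 0.0272). Sox9 led the sum of the list in control, at 61.9 to 71.7 CPM, and was at 35.6 to 51.0 in CM. Without it the other 9 summed to 16.7 to 24.9 CPM in control, 14.1 to 19.4 in TGF-beta, 20.3 to 180.5 in CM and 9.13 to 311 with neratinib. Keratin 8 (Krt8) was at 0 to 0.075 CPM in control and at 0.408, 44.4, 5.50 and 40.7 CPM in CM, high in the 2 libraries coded T6. With neratinib it was at 0, 37.4, 9.17 and 92.6 CPM. The part of these transcripts in the changes of the 38 genes was not tested, and medium code and passage cannot be told apart in these groups.

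On the other lists in CM, translocation genes had 9 of 30 higher and 0 lower, further folding factors 3 of 30 higher and 1 lower, further degradation genes 1 of 19 higher and 0 lower, further COPII genes 3 of 25 higher and 1 lower, and COPI genes 0 of 17 either way. Collagen hydroxylation genes had 2 of 11 higher and 1 lower. PERK and ATF4 outputs had 5 of 10 higher and 0 lower, with a median of 0.43. Secreted matrix genes had 0 of 12 higher and 4 lower, with a median of -0.58.

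Compared directly, CM and TGF-beta libraries differed in 19 of the 38 genes: 16 were lower in CM and 3 higher, where 35.3% of all genes were called (17.5% lower and 17.8% higher). The median log2 difference, CM minus TGF-beta, was -0.10 over the 38, beside 0.01 over all genes. The largest differences were in Creb3l1 (-1.72 ± 0.29), Creb3l2 (-1.35 ± 0.18), Sec23a (-0.92 ± 0.16), Kdelr3 (-0.87 ± 0.10), Herpud1 (-0.82 ± 0.10), Fkbp10 (-0.76 ± 0.10) and Serpinh1 (-0.68 ± 0.09), and in each of them no CM library overlapped a TGF-beta library. Creb3l1 was at 32.1, 29.9, 44.4 and 27.1 CPM and Kdelr3 at 90.1, 89.1, 98.1 and 83.1 CPM in CM, both overlapping their control ranges. Sdf2l1 (higher by 0.85 ± 0.15, adjusted p = 0.000474), Ern1 (0.55 ± 0.15, adjusted p = 0.00911) and Creld2 (0.20 ± 0.06, adjusted p = 0.0121) were higher in CM. Of the 19 calls, Pdia4 was not called in 6 of 8 fits without 1 library (any but without CM PSC4 replicate 2 or TGF-beta PSC4 replicate 3, adjusted p 0.0531 to 0.121) and Eif2ak3 not without CM PSC4 replicate 1 or TGF-beta PSC4 replicate 3 (0.0648 and 0.0712). The block gave 6 higher and 17 lower, adding Crtap (0.21, adjusted p = 0.0128), Dnajc3 (0.29, adjusted p = 0.00918), Manf (0.18, adjusted p = 0.0417) and, lower, P4hb (-0.24, adjusted p = 0.0129). Without the PSC4 replicate 1 libraries there were 5 higher and 17 lower. Of all genes, 43.4% were called with the block and 41.6% without those libraries. This comparison and that of TGF-beta with control share the TGF-beta libraries. The 14 of 17 COPI genes and 11 of 12 cargo genes called here were all lower in CM.

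With neratinib in CM, 3 of the 4 degradation genes rose, while 6 chaperones and isomerases fell. Against CM alone, 4 of the 38 genes rose and 8 fell, where 20.5% of all genes were called (10.8% higher and 9.63% lower), and the median was -0.08, beside 0 over all genes. The degradation genes that rose were Herpud1, Sel1l and Edem1, and Syvn1 fell. Herpud1 was at 55.6, 58.3, 56.0 and 55.7 CPM in CM and 125, 105, 102 and 114 CPM with neratinib. The CM values were nearly the same in every library, and all 4 neratinib libraries were far above them (log2 fold change 0.98 ± 0.10, adjusted p = 5.6e-05). Sel1l was at 148, 165, 156 and 141 CPM in CM and 239, 219, 189 and 194 CPM with neratinib, without overlap and with the PSC4 libraries highest under neratinib (log2 fold change 0.45 ± 0.08, adjusted p = 0.00172). Syvn1 was at 78.9, 86.2, 84.5 and 78.1 CPM in CM and 62.4, 64.8, 65.9 and 59.4 CPM with neratinib. The ligase moved opposite to its adaptor, again without overlap (log2 fold change -0.38 ± 0.07, adjusted p = 0.00204). Edem1 rose by 0.20 ± 0.06 (adjusted p = 0.0309).

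**Figure D4:**
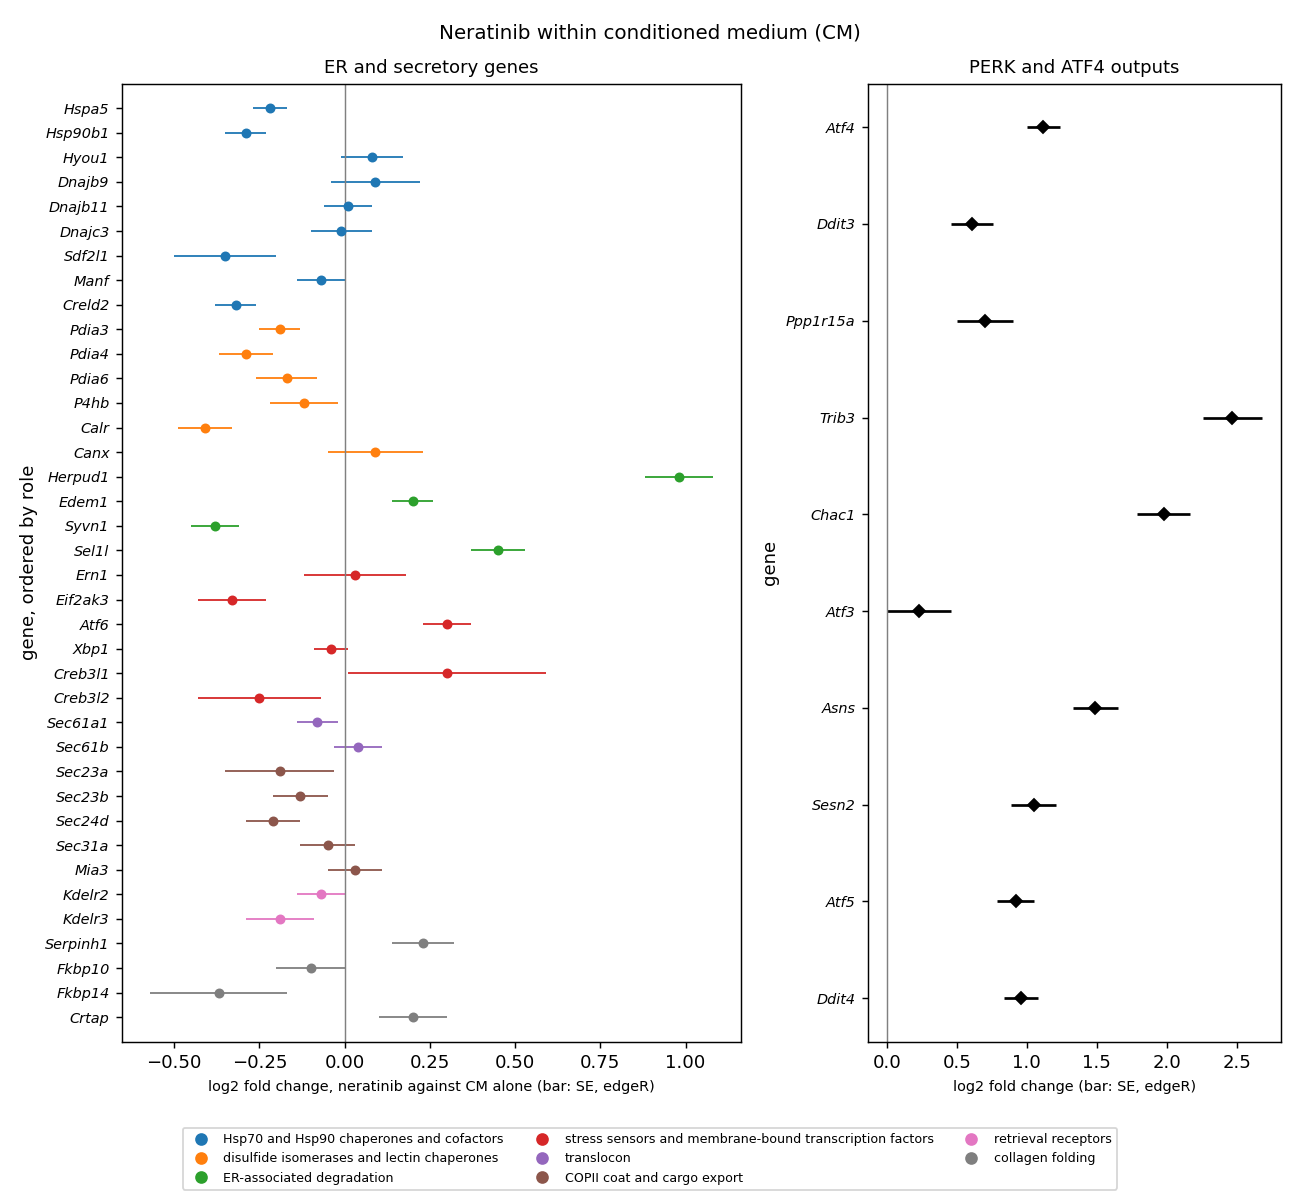
Fitted log2 fold change (edgeR, bars standard errors) in CM with neratinib against CM alone, for the 38 genes ordered and coloured by role on the left and for 10 PERK and ATF4 outputs on the right. Herpud1 is the highest of the 38 at 0.98, and on the right Trib3 is the highest at 2.47.

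The chaperones and isomerases that fell were Calr, Hsp90b1, Creld2, Hspa5, Pdia4 and Pdia3. Calr was at 1249.9, 1516, 1333 and 1371 CPM in CM and 940.0, 1143, 1061 and 968 CPM with neratinib, every neratinib library under every CM library (log2 fold change -0.41 ± 0.08, adjusted p = 0.00353). Hsp90b1 was at 1310.5, 1322, 1361 and 1397 CPM in CM and 1017, 1129, 1181 and 1091 CPM with neratinib. It too fell without overlap (-0.29 ± 0.06, adjusted p = 0.00322), as did Creld2 (-0.32 ± 0.06, adjusted p = 0.00211). Hspa5 was at 794, 801, 928 and 839.9 CPM with neratinib, with PSC5 replicate 1 inside the range of CM (-0.22 ± 0.05, adjusted p = 0.0109). Pdia4 and Pdia3 had log2 fold changes of -0.29 ± 0.08 and -0.19 ± 0.06 (adjusted p = 0.0225 and 0.0409), with overlapping groups.

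Of the sensors, Atf6 rose (0.30 ± 0.07, adjusted p = 0.0093) and Eif2ak3 fell (-0.33 ± 0.10, adjusted p = 0.0296). Atf6 was at 123, 132, 119 and 118 CPM in CM and 174, 154, 123 and 156 CPM with neratinib, where PSC5 replicate 1 lay inside the CM range. Without the PSC4 replicate 1 libraries Atf6 was not called (0.23, adjusted p = 0.0627), nor was Pdia3 (-0.15, adjusted p = 0.14). Serpinh1 (0.34, adjusted p = 0.0176) and Crtap (0.26, adjusted p = 0.0413), both of collagen folding, were then called higher. The counts were then 5 higher and 7 lower, where 14.2% of all genes were called. Xbp1 had a log2 fold change of -0.04 ± 0.05 (adjusted p = 0.584). In the fit of all libraries, none of the genes of the translocon, COPII, retrieval or collagen folding was called in this comparison. Without neratinib PSC4 replicate 1 alone, Serpinh1 (0.30, adjusted p = 0.0404) and Crtap (0.30, adjusted p = 0.0264) were called higher. Sec23b was called lower in that fit (-0.22, adjusted p = 0.0426).

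Neratinib PSC5 replicate 1 was high in several export and collagen genes. Creb3l1 was at 18.4, 38.3, 81.6 and 31.1 CPM with neratinib, with that library highest and PSC4 replicate 1 lowest. Kdelr3 was at 69.5, 77.6, 101 and 68.3 CPM, and without PSC5 replicate 1 it was called lower (-0.33, adjusted p = 0.00566, beside -0.19 and 0.212 with it). Fkbp14 was at 13.4, 26.5, 38.4 and 26.7 CPM, and without that library it too was called lower (-0.60, adjusted p = 0.0266, beside -0.37 and 0.215). Sec24d was also called lower without it (-0.27, adjusted p = 0.0221, beside 0.0687 with it).

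Other calls also depended on 1 library. Pdia3 was not called in 6 of 8 fits (any but without neratinib PSC4 replicate 2 or PSC5 replicate 1, adjusted p 0.0698 to 0.126) and Eif2ak3 in 5 (without neratinib PSC4 replicate 1 or PSC5 replicate 2, CM PSC4 replicate 2 or either CM PSC5 library, 0.0585 to 0.0937). Edem1 was not called in 4 (without either PSC4 neratinib library or replicate 2 of CM in either line, 0.0532 to 0.103) and Pdia4 in 3 (without CM PSC4 replicate 2, neratinib PSC4 replicate 1 or PSC5 replicate 2, 0.054 to 0.0778). Herpud1, Sel1l, Atf6, Calr, Syvn1, Creld2, Hsp90b1 and Hspa5 were called in all 8. With the block, 5 rose and 11 fell, adding Crtap (0.20, adjusted p = 0.0202) and, lower, Sdf2l1 (-0.37, adjusted p = 0.00547), Sec24d (-0.21, adjusted p = 0.0326) and Pdia6 (-0.18, adjusted p = 0.0301). The block called 32.8% of all genes.

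The PERK and ATF4 outputs rose with neratinib as a list: 9 of 10 were called higher and 0 lower, with a median log2 fold change of 1.01. Trib3 rose by 2.47 ± 0.21, Chac1, a glutathione-degrading enzyme, by 1.98 ± 0.19, and Asns by 1.49 ± 0.16. The PERK transcript itself, Eif2ak3, was lower in this comparison. The list is named for its known regulators, and whether PERK acted on these genes was not tested in any comparison. Of the other lists, further degradation genes had 4 of 19 higher and 1 lower, further COPII genes 2 of 25 higher and 5 lower, further folding factors 3 of 30 higher and 2 lower, COPI genes 2 of 17 higher and 1 lower and translocation genes 1 of 30 in each direction. Collagen hydroxylation genes had 0 of 11 called, and secreted matrix genes 0 of 12 higher and 2 lower (Col5a1 at -0.70 and Fn1 at -0.58). Over all genes 10.8% were called higher and 9.63% lower in this comparison.

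Against control, CM with neratinib had 11 of the 38 genes higher and 8 lower, where 43.1% of all genes were called (22.2% higher and 20.9% lower), with a median of 0.05, beside 0.01 over all genes. Of all called genes 51.4% were higher, and 41.1% with upper-quartile factors, under which 8 of the 38 rose and 9 fell. The neratinib libraries of Herpud1 were all above control (0.95 ± 0.09, adjusted p = 5.65e-06), as were those of Sel1l (0.53 ± 0.07, adjusted p = 0.000101), Edem1 (0.33 ± 0.06, adjusted p = 0.000461) and Hyou1 (0.40 ± 0.08, adjusted p = 0.00159). Fkbp14 (-0.66 ± 0.20, adjusted p = 0.0149), Creb3l2 (-0.57 ± 0.17, adjusted p = 0.0152) and Sec24d (-0.42 ± 0.07, adjusted p = 0.000532) were lower, each with all neratinib libraries under all control libraries. Hspa5 had a log2 fold change of -0.02 ± 0.05 and was not called (adjusted p = 0.732). Herpud1 stood higher than control in both TGF-beta and CM with neratinib, 2 comparisons that share the control libraries, with Creb3l2 higher in the first (1.04) and lower in the second (-0.57).

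The other genes called higher against control were Ern1 (0.43), Canx (0.38), Atf6 (0.32), Dnajb11 (0.30), Serpinh1 (0.24), Xbp1 (0.19) and Sec61b (0.18), and those lower were Eif2ak3 (-0.29), Syvn1 (-0.26), Calr (-0.22), Pdia4 (-0.20) and Creld2 (-0.16). Of these, Ern1, Canx, Serpinh1, Sec61b, Eif2ak3, Calr, Pdia4 and Creld2 were not called in 2 to 7 of the 9 fits without 1 library (adjusted p 0.05 to 0.182), and the removal of each of the 9 libraries ended at least 1 call. Without neratinib PSC4 replicate 1, Ern1, Canx, Sec61b, Eif2ak3, Calr and Pdia4 had adjusted p of 0.13, 0.181, 0.094, 0.0882, 0.115 and 0.182. Without the PSC4 replicate 1 libraries 12 genes rose and 5 fell, with Crtap added (0.23, adjusted p = 0.0225) and Creld2, Eif2ak3 and Pdia4 not called (0.0666, 0.0533 and 0.122). With the block, Crtap (0.17, adjusted p = 0.0199), Dnajb9 (0.24, adjusted p = 0.0213), Manf (0.17, adjusted p = 0.0318) and Sec23b (0.16, adjusted p = 0.0247) were added and Serpinh1 was not called (adjusted p = 0.0503). Of all genes, 52.4% were called with the block and 40.3% without the PSC4 replicate 1 libraries. All 10 PERK and ATF4 outputs were called higher than control (median 1.32), and 10 of 12 secreted matrix genes were lower. Over all genes 22.2% were called higher and 20.9% lower in this comparison. The 38 genes made up 1.18% ± 0.0317 of counts in CM and 1.07% ± 0.0705 with neratinib (SD, n = 4), and the 12 cargo genes 1.04% ± 0.118 and 0.722% ± 0.243.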

How the data were processed

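RNA of 17 libraries was extracted and made into mRNA libraries, per the labels. For each Ensembl gene the authors deposited expected counts, estimated with Salmon 1.4.0 according to the submitters' processing notes, which also name DESeq version 2 and the builds GRCm38 and mm10. The annotation release was not given in the sources used here. Of the deposited expected counts above 0, 74.77% were not whole, and all were rounded before use.

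All 17 libraries were fitted in 1 model of group and cell line by edgeR 4.0.16 (R 4.3.3) and its quasi-likelihood test, TMM factors and the low-count filter filterByExpr by group, which left 13923 genes. P-values were adjusted by Benjamini-Hochberg over these genes, and a gene with an adjusted p under 0.05 is called. CPM are scaled by TMM, except those of cell type markers, which are scaled to library totals alone, and levels per kb use the union of GENCODE M21 exons, also the source of gene positions. The members and lists were chosen with earlier results of these data known. All 38 genes may be named. From each other list, named genes are the 3 with the largest called rise and the 3 with the largest called fall at 10 CPM or more, with TGF-beta and with neratinib, plus Col1a1, Col1a2, Col3a1 and Fn1. The script was tested on simulated data.

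Libraries of different groups with the same line and replicate number, which are of the same passage, were checked for pairing by correlating their deviations from group means across genes. All 22 such pairs had r above 0.1 (0.12 to 0.635, median 0.30). The 32 pairs of the same line with another number had r of -0.536 to 0.613 (median -0.076). Those of PSC4 replicate 1 with replicates 2 and 3 were all below 0 (-0.536 to -0.181). CM PSC4 replicate 2 had r of 0.613 with control PSC4 replicate 3 and 0.602 with replicate 2. Pairing by number beyond the shared line was not tested, and the block is given where it changes a call. Alternatives were other scaling factors, DESeq2 1.42.0, no filter, the block, no cell line term, only 2 groups, single lines, PSC4 replicate 1 removed or counted with PSC5, and each library left out. Counting of reads from overlapping or antisense genes could not be checked.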

Additional observations from a re-analysis of the deposited data

Results flagged for a closer look

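For each of the 38 genes and 4 groups, 152 in all, a library was singled out when its gap to the nearest other library, divided by the group's range, passed Dixon's 95% limit; chance alone gives about 1 in 20, and 6 were found. In CM, PSC4 replicate 2 was the low library for Canx (741.4 CPM, next 978) and Serpinh1 (696.5 CPM, next 809.5 CPM) and the high library for Herpud1 (58.3 CPM, next 56.0), where all 4 values lay within 3 CPM. Syvn1 was low in control PSC4 replicate 1 (65.9 CPM, next 75.8). Sec23b was high with neratinib in PSC4 replicate 1 (79.5 CPM, next 66.3). Edem1 was high with TGF-beta in PSC5 replicate 1 (195.6 CPM, next 175.6).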

How the results depend on the processing

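Of 82 called values of the 38 genes over 5 comparisons, 0 changed sign in any alternative, 57 kept their call without each library in turn and 25 lost it at least once; of 108 values not called, 45 changed sign at least once. Counts below are higher, then lower. TGF-beta against control had 24 and 1. It gave 14 higher in PSC4 alone and 14 in PSC5 alone, and 3 lower with the replicate block or with PSC4 replicate 1 removed, 2 with it counted as PSC5, and 0 in PSC4 alone. Of all genes tested, 18% were called in PSC4 alone, 18.9% in PSC5 alone and 50.9% with the block. The share was 49.4% with PSC4 replicate 1 removed and 48.1% with it counted as PSC5, beside 40.2% in the main fit. CM against control had 7 and 0. It gave 4 and 1 with upper-quartile factors, 12 and 1 with DESeq2, 4 higher with no filter, 13 and 1 with the replicate block, 3 higher with no cell line term, 11 higher with PSC4 replicate 1 removed, 11 and 1 with it counted as PSC5, 3 lower with only 2 groups, 0 higher in either line alone, and 1 to 7 higher without 1 library. Of all genes tested, 0.963% were called in PSC4 alone, 0.0144% in PSC5 alone, 15% with upper-quartile factors and 7.43% (of 35896) with DESeq2. The share was 6.93% with no filter, 10.9% with no cell line term, 20.6% with only 2 groups and 23.3% with the block. It was 18.1% with PSC4 replicate 1 removed, 21.4% with it counted as PSC5 and 5.68% to 12.9% without 1 library, beside 14.2% in the main fit. Neratinib against CM had 4 and 8. It gave 2 and 2 with only 2 groups, 1 and 0 in either line alone, and 3 to 5 and 5 to 11 without 1 library, with 5 lower without CM PSC4 replicate 2 or neratinib PSC5 replicate 2. Of all genes tested, 4.54% were called with only 2 groups, 1.84% in PSC4 alone and 0.432% in PSC5 alone. The share was 12.4% to 26.1% without 1 library, beside 20.5% in the main fit. Neratinib against control had 11 and 8. It gave 7 and 4 with only 2 groups, 5 and 2 in PSC4 alone, 2 and 0 in PSC5 alone, 5 lower with no filter or PSC4 replicate 1 removed, and 7 to 12 and 4 to 9 without 1 library. Of all genes tested, 35.5% were called with only 2 groups, 20.2% in PSC4 alone and 9.81% in PSC5 alone. The share was 24.1% with no filter, 40.3% with PSC4 replicate 1 removed and 35.1% to 44.3% without 1 library, beside 43.1% in the main fit. CM against TGF-beta had 3 and 16. It gave 6 higher with the replicate block, 5 with PSC4 replicate 1 removed and 0 in PSC4 alone, with 3 and 14 to 16 without 1 library. Of all genes tested, 43.4% were called with the block, 41.6% with PSC4 replicate 1 removed and 12.9% in PSC4 alone. The share was 29% to 32.8% without 1 library, beside 35.3% in the main fit. The cause of these shifts was not tested; single lines and 2 groups hold fewer libraries. TGF-beta against control gave 21 to 24 higher and 1 lower without 1 library, where 33.7% to 39.7% of all genes were called. No interaction term of the 38 was called under any of 7 alternatives, which called 10 to 147 of all genes. The paralogue ratios were not called in any setting, in a design where few could be; their differences within line and replicate number, an alternative chosen after seeing the data, with this replicate block gave an adjusted p of 0.208 for all 3 with TGF-beta. Depth limits the genes of low count, and all 38 passed the filter.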
